A study of Mus musculus with 18 samples.

Results

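The smooth muscle contractile genes described here are Myh11, Mylk, Cnn1, Tagln and Smtn. They were chosen by name, as the probe sets whose only gene symbol in the platform annotation is one of these 5. Each gene had 1 such probe set, so the members are 5 of the 8252 genes that have a probe set with a single symbol. The series holds 18 Affymetrix arrays of total RNA from mice 8 weeks of age, with 3 arrays in each of 6 groups. The dko groups were extraocular muscle, which turns the eyeball, heart and leg muscle, and the mdx groups, the controls by the labels, were the same 3 tissues. Mdx mice lack dystrophin, and by usual usage dko mice lack both dystrophin and its relative utrophin, so that the dystrophin defect is shared by dko and control samples. The labels give no strain, sex, allele or treatment, do not name the leg muscle taken, and do not say whether replicates are separate animals. If they are not, the p-values cover technical spread alone.

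Smooth muscle cells lie in the walls of the arteries, arterioles and veins that run through every striated muscle. They contract when myosin light chain kinase, switched on by calcium and calmodulin, phosphorylates the regulatory light chain of smooth muscle myosin. Calponin, transgelin and smoothelin bind the actin filaments on which that myosin pulls, and many of these genes are switched on by serum response factor and its partner myocardin through a promoter element called the CArG box. Activated fibroblasts can make some of the same proteins, and striated fibres make their own myosins. Which cells these transcripts came from in whole muscle was not tested.

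Marker probe sets separated dko from mdx arrays (Utrn) and heart from the other tissues (Myh6) as labelled, while Myh4 and Acta1 overlapped between extraocular and leg muscle. Utrn, which encodes utrophin, had a probe set that read 219.9 to 414.3 on the 9 dko arrays and 437.6 to 1086.5 on the 9 mdx arrays; whether its probes fall inside the sequence removed in dko was not determined. This probe set was picked by hand, whereas the other markers were taken by the brightest probe set. What any other Utrn probe set read is not given here. Cardiac Myh6 read 6873.7 to 68085.4 in heart, 500.6 to 1764.8 in extraocular muscle and 53.6 to 132.9 in leg muscle. Fast-fibre Myh4 read 18890.1 to 57331.7 in extraocular muscle, 26.4 to 456.6 in heart and 461.3 to 48678.2 in leg muscle, the lowest leg value being on mdx array 2. Skeletal Acta1 read 256.1, 247.7 and 6656.3 on mdx leg arrays 1, 2 and 3, and 1281.8, 1915 and 20656.3 on the dko ones. It read 16594.8 to 53392.1 in extraocular muscle and 4861.3 to 14479.6 in heart. Leg arrays 1 and 2 of both genotypes thus read below every heart array, and the cause was not tested. Arrays numbered 3 stood apart, with medians of 525.6 to 573.8 intensity units against 612.6 to 671.8 on the arrays numbered 1 or 2. Dko and mdx arrays of the same tissue and number deviated alike from their group means, with a median correlation across probe sets of 0.61 over 9 pairs. Arrays of the same number from different tissues did so too, with a median of 0.54 over 36 pairs, so that the likeness was not confined to a tissue. The replicate number was therefore used as a block (a term for what arrays of 1 number share) beside the main test, and values are given array by array. With 3 arrays a group, the number of arrays limits the precision.

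The RefSeq promoter table held 3 of the 5 members: Cnn1, Mylk and Smtn. Their windows, 250 bases before to 50 after an annotated start in build GRCm38.p6, are shown because the table held only these members. The group means of these 3 genes ran in different orders, and no link of windows to means was tested. The means of Cnn1 and Mylk were highest in extraocular muscle, and those of Smtn in heart. That contrast between genes was not tested, and neither Cnn1 nor Smtn passed a tissue test with all arrays in the fit. Capitals mark CATTCC, on either strand, a motif bound by TEAD factors in muscle promoters, which was picked with these windows in view.
Cnn1, chr9:22099003-22099302, plus strand: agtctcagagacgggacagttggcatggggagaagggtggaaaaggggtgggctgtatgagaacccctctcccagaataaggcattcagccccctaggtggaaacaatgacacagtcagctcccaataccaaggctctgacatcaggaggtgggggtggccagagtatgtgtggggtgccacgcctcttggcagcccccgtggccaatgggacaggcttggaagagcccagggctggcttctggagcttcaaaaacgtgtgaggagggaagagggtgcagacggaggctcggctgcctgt
Mylk, chr16:34784700-34784999, plus strand: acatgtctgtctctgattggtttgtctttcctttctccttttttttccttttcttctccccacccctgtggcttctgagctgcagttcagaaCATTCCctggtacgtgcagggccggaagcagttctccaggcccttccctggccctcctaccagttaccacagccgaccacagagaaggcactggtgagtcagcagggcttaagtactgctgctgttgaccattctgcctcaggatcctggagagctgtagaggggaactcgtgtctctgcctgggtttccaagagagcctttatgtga
Smtn, chr11:3539243-3539542, minus strand: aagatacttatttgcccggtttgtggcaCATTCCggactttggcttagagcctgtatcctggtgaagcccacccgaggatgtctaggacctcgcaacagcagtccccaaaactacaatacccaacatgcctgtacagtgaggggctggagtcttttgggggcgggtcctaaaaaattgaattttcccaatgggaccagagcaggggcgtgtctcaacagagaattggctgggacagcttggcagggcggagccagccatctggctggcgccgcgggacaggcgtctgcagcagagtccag
The Mylk window belongs to an annotated start inside the gene, which spans 34745199 to 35002436 on chromosome 16. The motif CATTCC occurred 1 time in the Mylk window, from -158 to -153 relative to the start, 1 time in the Smtn window, from -222 to -217, and 0 times in the Cnn1 window, and 14.7% of all 32851 promoter windows of that length hold it. The CArG box, searched on both strands by its strict form, was found in none of these 3 windows, and 1.63% of all windows hold it. With 1 inner letter changed it was again in none of the 3 and in 8.5% of all windows; the window of Acta2, smooth muscle alpha-actin, had 2 such matches, from -84 to -75 and from -34 to -25. These are matches of letters within a short window, and other elements of these genes were not searched.

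Every extraocular array of Myh11, Mylk and Tagln read above every leg array, as for 3.06% of all probe sets. Between dko and mdx 0 of the 5 members passed the test in any tissue. Myh11 encodes the smooth muscle myosin heavy chain, the motor of the contractile apparatus and its most restricted marker. It read 1910.9, 3207.2 and 5407.9 on dko arrays 1, 2 and 3 of extraocular muscle, against 1462.1, 4513.3 and 8437.5 on the mdx arrays. In heart it read 1477.3, 748.7 and 2265.7 in dko, against 1193, 885.5 and 2227.6 in mdx. In leg muscle it read 562.9, 752.2 and 707.1 in dko, against 695.9, 622.3 and 843.1 in mdx. Every extraocular array lay above every leg array in both genotypes, while the heart arrays overlapped the extraocular ones, and the dko and mdx groups overlapped in each tissue.

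**Figure D1:**
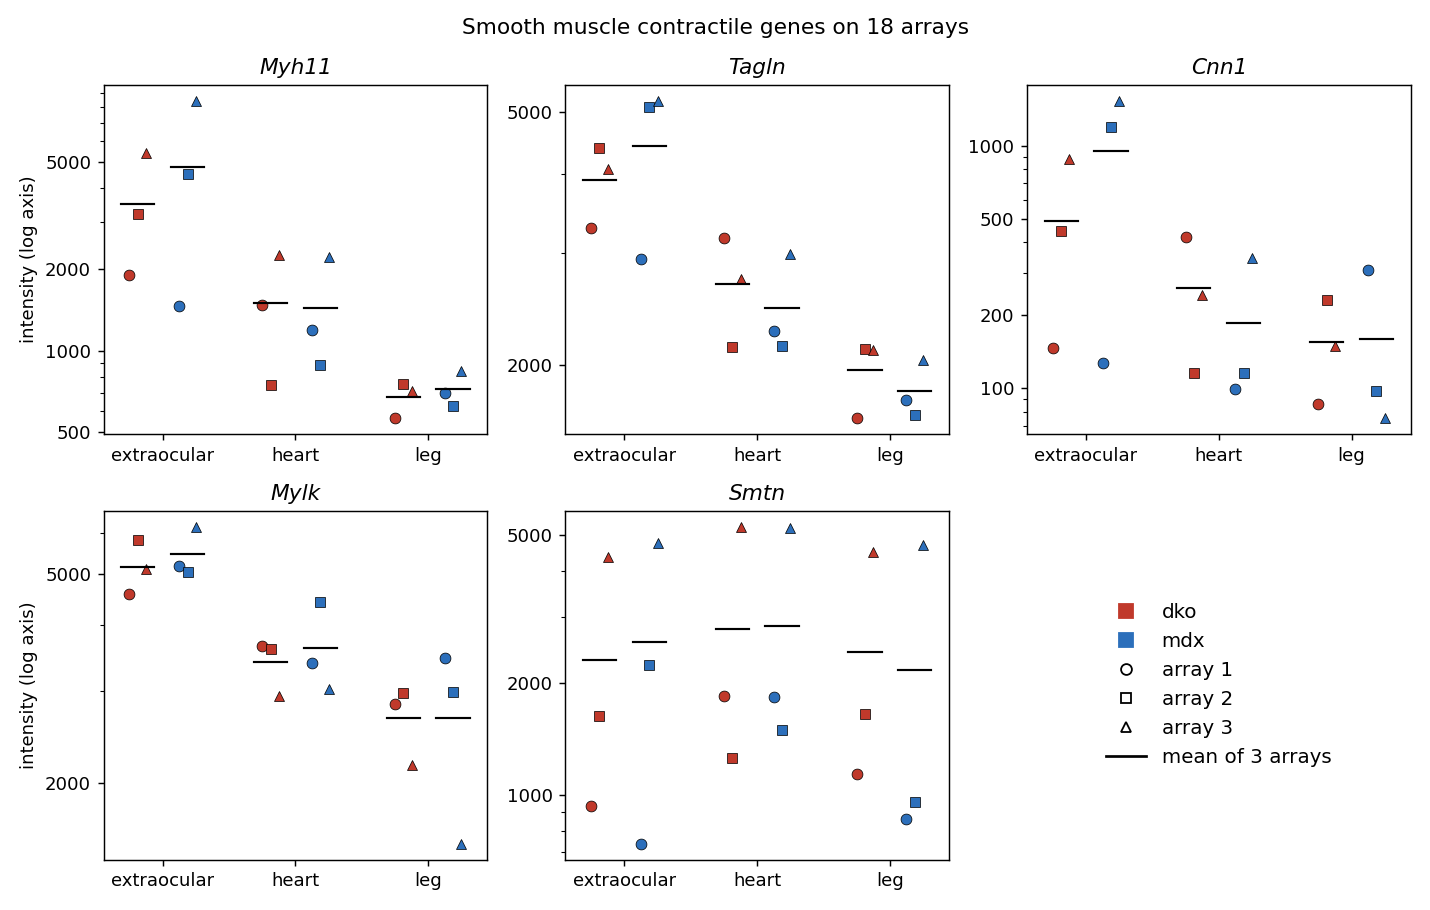
Intensity (log axis, units of the deposited table) of the 5 members on each of the 18 arrays, by tissue and genotype; each point is an array, shaped by its replicate number, and the bar is the mean of 3. Myh11, Tagln and Mylk are highest in extraocular muscle and lowest in leg muscle, Cnn1 is dim and spread, and Smtn splits by array number, with the 6 arrays numbered 3 at 4365 to 5267.

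Mylk encodes myosin light chain kinase, the enzyme that starts smooth muscle contraction, whose gene also yields a non-muscle form. It read 4593.1, 5800.6 and 5106.7 in dko extraocular muscle, against 5186.1, 5037.7 and 6163.1 in mdx. In heart the values were 3653.5, 3602.6 and 2925.2 in dko, against 3383.2, 4428.5 and 3026.9 in mdx. In leg muscle they were 2833.8, 2964.8 and 2164.9 in dko, against 3462.7, 2986.8 and 1531.3 in mdx. Mylk was the only member whose extraocular arrays lay above all arrays of both other tissues in each genotype (11.1% of probe sets had extraocular arrays above heart arrays in dko and 9.8% in mdx), and it was also the least variable of the 5 in extraocular muscle, with a coefficient of variation of 11.7% in dko and 11.2% in mdx.

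Tagln encodes transgelin (SM22-alpha), an actin-bundling protein that appears early in smooth muscle and also in activated fibroblasts. It read 3286.2, 4384.8 and 4064.1 in dko extraocular muscle, against 2936.7, 5094.3 and 5203.1 in mdx. In heart it read 3170.5, 2137.1 and 2736.5 in dko, against 2262.6, 2145.7 and 2989.2 in mdx. The leg values were 1654, 2124 and 2117.8 in dko, against 1764.4, 1671.7 and 2041.9 in mdx. The leg arrays lay below every heart array of their own genotype and below every extraocular array; heart lay above leg muscle in this way for 12.1% of probe sets in each genotype.

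Cnn1 encodes calponin 1, which binds actin and holds back the myosin motor. Its probe set was dim: it ranked between the 14.4th and the 73rd percentile of its arrays and passed the filter on dim probe sets on 5 of 18 arrays, 4 extraocular and 1 heart, so that its entry into the test leaned on the tissue where it was high. Its name ends in _s_at, the manufacturer's mark for probes shared by several transcripts. It read 146.9, 446.5 and 877.8 in dko extraocular muscle, against 127.3, 1195.4 and 1531.5 in mdx. In heart it read 420.5, 115.6 and 242.8 in dko, against 99.1, 115.6 and 343.8 in mdx. Leg muscle gave 86.5, 230.2 and 149.9 in dko, against 306.5, 97.9 and 75.4 in mdx. Arrays 2 and 3 of extraocular muscle were the 4 highest of all 18, and array 1 of extraocular muscle lay within the range of leg muscle in both genotypes.

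Smtn encodes smoothelin, an actin-associated protein of contractile smooth muscle. Here its values differed more between array numbers than between tissues. It read 934.7, 1625.1 and 4365 in dko extraocular muscle, against 738.5, 2236.4 and 4769.6 in mdx. In heart it read 1848.9, 1256 and 5267 in dko, against 1833.8, 1498.1 and 5229.4 in mdx. The leg arrays read 1141.1, 1645.2 and 4487.3 in dko, against 858.8, 954.2 and 4693 in mdx. Heart read above leg muscle in 2 of 3 pairs in dko, and in 3 of 3 in mdx, by 2.14, 1.57 and 1.11 times. Array 3 was the highest in all 6 groups, by 3.14 to 5.18 times the mean of arrays 1 and 2. The same order, array 3 on top in all 6 groups, held for 12.3% of the 8888 probe sets tested, and of the other members Myh11 showed it in 5 groups, Tagln and Cnn1 in 3 each and Mylk in 1.

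The order of the group means was alike for Myh11, Tagln and Mylk. Cnn1 followed it as well, but it passed the filter mostly on extraocular arrays and all its neighbouring groups overlapped, so it lends that order no support. For Myh11, Tagln and Cnn1 it ran from mdx extraocular (4804, 4411 and 951.4), through dko extraocular (3509, 3912 and 490.4), dko heart (1497, 2681 and 259.6) and mdx heart (1435, 2466 and 186.2) to leg muscle. For Mylk mdx heart (3613) came before dko heart (3394), between extraocular muscle (5462 in mdx and 5167 in dko) and leg muscle (2660 in mdx and 2655 in dko). For Smtn the means ran from 2854 in mdx heart to 2169 in mdx leg muscle with all neighbours overlapping. Neighbouring groups in these orders overlapped array by array except between mdx heart and mdx leg muscle for Myh11, between mdx heart and dko leg muscle and between dko extraocular muscle and dko heart for Tagln, and between dko extraocular muscle and mdx heart for Mylk. These are orders within each probe set, and levels of different probe sets are not set against each other.

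The genotype question was whether loss of utrophin on top of dystrophin went with a change in the smooth muscle apparatus. In the limma test over all 8888 probe sets 0 of the 5 members passed an adjusted p of 0.05 in extraocular muscle, where 0.0225% of probe sets were called in either direction. Likewise 0 passed in heart, where 0% were called, in leg muscle, where 0.0563% were called, and in the mean of the 3 tissues, where 0.09% were called. With the replicate block it was again 0 in each, beside 0.158%, 0%, 1.2% and 0.788% of all probe sets. At an unadjusted p under 0.05 without the block it was also 0 in each of the 4 comparisons, where 196 (extraocular muscle), 130 (heart), 556 (leg muscle) and 440 (the mean) of all 8888 probe sets passed, so that a count of 0 of 5 is near that background. The dko and mdx arrays of every member overlapped in every tissue, and the arrays of 5.65%, 3.92% and 9.95% of all probe sets did not overlap in extraocular muscle, heart and leg muscle.

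The sizes were small beside their errors for the better measured members. The log2 differences, taken after an offset of 166.7 was added to each value so that dim probe sets give smaller differences, were dko minus mdx. Tagln differed by -0.13 (SE 0.23) in extraocular muscle, 0.11 in heart and 0.09 in leg muscle, with a 95% interval in the mean of the 3 tissues of -0.26 to 0.31 around 0.024. Mylk differed by -0.08 (SE 0.25), -0.08 and 0.06 in the same order, with an interval of -0.34 to 0.28 around -0.03 in the mean.

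Myh11 differed by -0.25 (SE 0.52) in extraocular muscle, 0.03 in heart and -0.08 in leg muscle, and Smtn by -0.09 (SE 0.78), -0.07 and 0.33. Their intervals in the mean of the 3 tissues were -0.73 to 0.54 for Myh11 and -0.90 to 1.02 for Smtn. With the replicate block they narrowed to -0.35 to 0.16 for Myh11 and -0.17 to 0.28 for Smtn. The largest difference among the members was that of Cnn1 in extraocular muscle, -0.59 (SE 0.57, interval -1.80 to 0.63; adjusted p = 1 with limma and 0.72 with the replicate block), lower in dko in 2 of 3 pairs of the same number. With arrays left out it ran from -1.38 (without extraocular mdx array 1) to -0.11 (without extraocular mdx array 3). Cnn1 differed by 0.28 in heart and 0.02 in leg muscle. Of the 3 tests of whether the dko-mdx difference itself differs between tissues, 0 members passed in any without the block, where 0% of probe sets were called. With it 0 passed beside 0.0338% (extraocular minus leg), 0.0675% (heart minus leg) and 0% (extraocular minus heart).

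**Figure D2:**
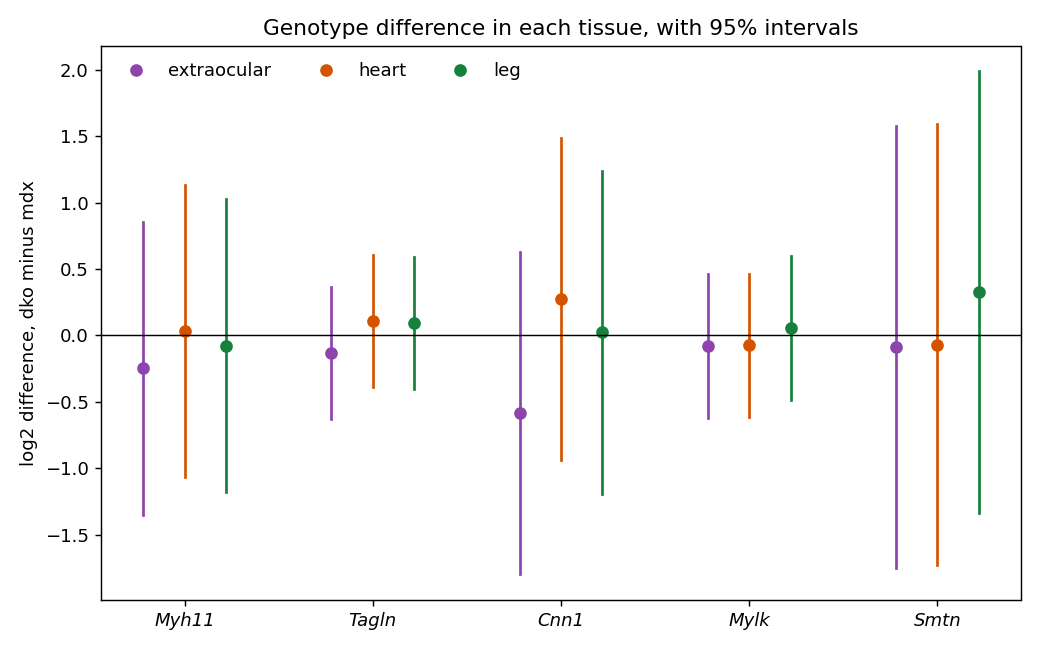
Log2 difference, dko minus mdx, of each member in extraocular muscle, heart and leg muscle (dots), with the 95% interval of the limma fit without the replicate block (lines). All 15 intervals hold 0, and they are narrowest for Tagln and Mylk.

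Between tissues the picture was different. In mdx mice 3 of the 5 members, Myh11, Tagln and Mylk, were higher in extraocular than in leg muscle in the limma test, where 2.57% of all probe sets were higher. Myh11 was higher by 2.19 on the log2 scale (SE 0.52, 4.57-fold, adjusted p = 0.0254), Tagln by 1.16 (SE 0.23, 2.24-fold, adjusted p = 0.01) and Mylk by 1.06 (SE 0.25, 2.09-fold, adjusted p = 0.0276). Cnn1 (1.496, SE 0.57, adjusted p = 0.214 with limma) and Smtn (0.31, SE 0.78, adjusted p = 0.962 with limma) did not pass.

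In dko mice the same genes had these differences, whose departure from those in mdx passed no test above. Myh11 was at 2.02 (adjusted p = 0.0564 with limma), Tagln at 0.93 (adjusted p = 0.0508) and Mylk at 0.92 (adjusted p = 0.0824), so that 0 of 5 passed without the block, where 1.43% of probe sets were higher. With the replicate block these 3 passed in dko (adjusted p = 0.00465, 0.00923 and 0.0147) beside 4.04% of all probe sets, and in mdx (adjusted p = 0.00173, 0.0014 and 0.00411) beside 6.54%. In both genotypes together the extraocular arrays of Myh11, Tagln and Mylk did not overlap the leg arrays, which was so, with extraocular muscle on top, for 3.06% of all probe sets (7.97% in dko alone and 8.88% in mdx alone).

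The mdx calls depended on which arrays entered the fit. With only the 6 mdx extraocular and leg arrays in the fit, 0 members passed, with adjusted p of 0.157 for Myh11, 0.144 for Tagln and 0.245 for Mylk. It was also 0 without leg mdx array 2, extraocular mdx array 2 or extraocular mdx array 3, and 1, Tagln, without leg mdx array 3. The calls over all probe sets fell as well, to 66 with those 6 arrays and to 178, 181, 222 and 270 without these arrays in turn, against 357 with all arrays. With each of these 4 arrays left out the log2 differences lay between 1.65 and 2.29 for Myh11, 1.02 and 1.24 for Tagln, and 0.73 and 1.18 for Mylk. Without extraocular mdx array 1 Cnn1 passed (2.29, adjusted p = 0.0167) and Mylk did not (1.09, adjusted p = 0.0672), and without leg mdx array 1 Myh11 did not (2.18, adjusted p = 0.0747).

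Taken number by number, the extraocular over leg ratio of raw intensity was above 1 in 3 of 3 pairs in each genotype for Myh11, Tagln and Mylk. For Myh11 it was 3.39, 4.26 and 7.65 in dko for numbers 1, 2 and 3, against 2.10, 7.25 and 10.01 in mdx. For Tagln it was 1.99, 2.06 and 1.92 in dko, against 1.66, 3.05 and 2.55 in mdx, and for Mylk 1.62, 1.96 and 2.36 in dko, against 1.498, 1.69 and 4.02 in mdx. Cnn1 was the member that depended most on the number: 1.70, 1.94 and 5.86 in dko, against 0.415, 12.2 and 20.3 in mdx. Smtn had ratios of 0.819, 0.988 and 0.973 in dko, against 0.860, 2.34 and 1.02 in mdx.

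**Figure D3:**
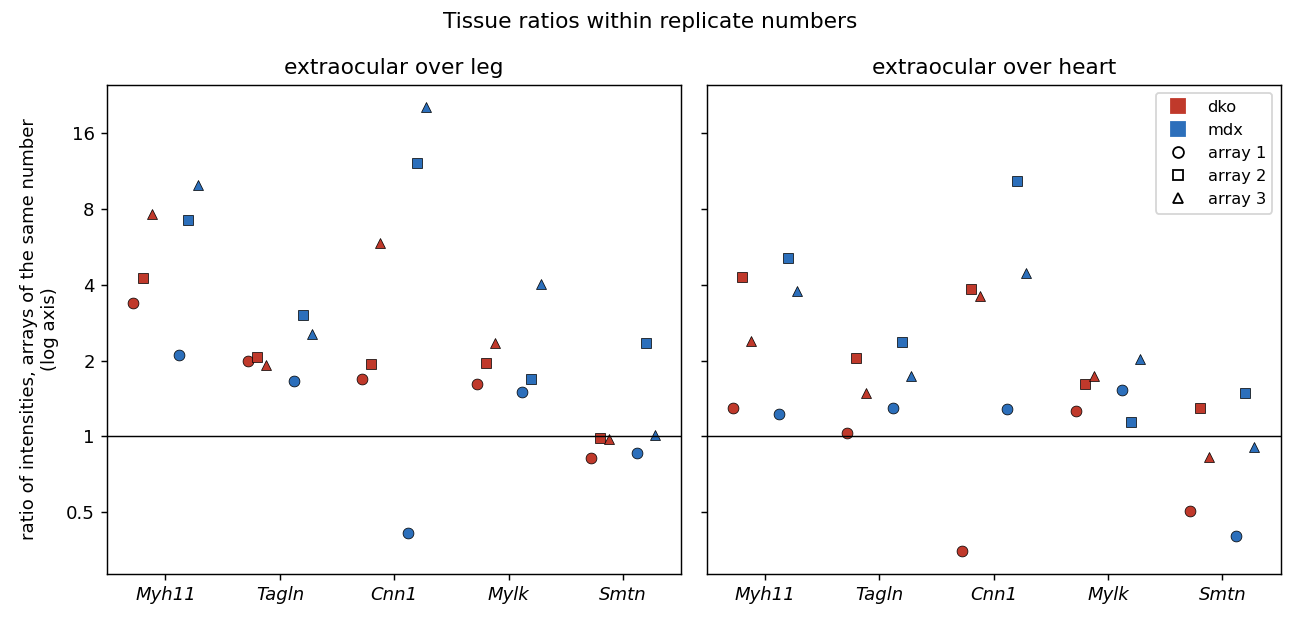
Ratio of intensities (log axis) between arrays of the same number and genotype, extraocular over leg muscle at left and extraocular over heart at right, for each member; colour gives the genotype and shape the number. Myh11, Tagln and Mylk lie above 1 in every pair of both panels, Cnn1 spans 0.415 to 20.3 against leg muscle, and Smtn lies on both sides of 1.

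Against heart, extraocular muscle had higher readings of Myh11, Tagln and Mylk, with smaller differences. So did Cnn1, which passed the filter mostly on extraocular arrays. In mdx Myh11 was at 1.42 (2.68-fold), Tagln at 0.77 (1.70-fold), Cnn1 at 1.38 and Mylk at 0.59, and 0 of 5 passed in limma, where 3.76% of probe sets were higher. With the replicate block Myh11 (adjusted p = 0.0184) and Tagln (adjusted p = 0.014) passed, beside 8.49%. In dko the differences were 1.14 for Myh11, 0.52 for Tagln, 0.52 for Cnn1 and 0.58 for Mylk, and 0 passed with or without the block, beside 4.23% without and 9.26% with it. Smtn lay at -0.25 in mdx and -0.27 in dko. Heart against leg muscle gave 0 calls in either genotype, with or without the block, beside 5.16% of probe sets higher in dko and 5.04% in mdx without it, and 12% and 11.7% with it; the differences ran from 0.17 (Smtn) to 0.88 (Myh11) in dko and from 0.11 (Cnn1) to 0.77 (Myh11) in mdx.

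Within groups the members moved together unequally. After each group's mean was subtracted, Myh11, Tagln and Cnn1 correlated over the 18 arrays at r of 0.84 to 0.86, and Smtn with those 3 at 0.55 to 0.83, while Mylk ran at -0.57 to 0.23 with the other 4. When the shared deviation of each replicate number was also subtracted, the first 3 stayed at 0.80 to 0.90, and Mylk was at 0.57 with Cnn1, 0.45 with Myh11, 0.10 with Tagln and -0.24 with Smtn. These coefficients are descriptions over arrays that share group, number and scaling, and carry no test.

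Over the 18 arrays the gene whose profile was most like the mean standardised profile of the members, of 6546 genes tested, was Csrp1 (r = 0.93), which encodes a LIM-domain protein abundant in smooth muscle. Ndrg1 (0.91), Sec14l1 (0.91), Kcna1 (0.89), a potassium channel of nerve, and Spock2 (0.87) followed. Csrp1 read 2329.9, 2878.7 and 3655.3 in dko extraocular muscle, against 1967.4, 3273.9 and 3393.5 in mdx. Leg values of Csrp1 were 1716, 2192.7 and 2139.9 in dko, against 1477.9, 1462.9 and 2037.5 in mdx. The extraocular arrays lay above the leg arrays in dko, and in mdx the lowest extraocular array lay below the highest leg array. In heart Csrp1 read 2283.6, 1634.3 and 2311.3 in dko, against 2110.8, 1818 and 2677.6 in mdx. Extraocular against leg muscle it did not pass in limma without the block (0.50, adjusted p = 0.515 in dko, and 0.72, adjusted p = 0.149 in mdx). Nor did it against heart (0.47, adjusted p = 0.365 in dko, and 0.34, adjusted p = 0.595 in mdx). The name of its probe set also ends in _s_at. After group means were subtracted Csrp1 still ranked 5th (0.87), behind Baiap2l1 (0.94), Myl4 (0.88), Nr1d1 (0.88) and Atp13a1 (0.87). After number means were subtracted too, the first 5 were Gpx3 (0.93), Baiap2l1 (0.90), Myl4 (0.89), Nr1d1 (0.89) and Mtmr14 (0.86), and Csrp1 was not among them.

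Acta2, smooth muscle alpha-actin and the best known marker of this cell type, was less like the members over all 18 arrays, with an r of 0.39 at rank 870 of 6546. After group means were subtracted its r was 0.71 at rank 119, and after number means were subtracted too it was 0.50 at rank 572. It read 5597.1, 7356 and 6801 in dko extraocular muscle, against 4630.9, 6957.5 and 12200.3 in mdx. In heart it read 8056.9, 10342.3 and 10215.2 in dko, against 6416.4, 9203.9 and 8393.9 in mdx. In leg muscle it read 6545.4, 8651.8 and 10232.7 in dko, against 5221.5, 4566.4 and 4650.7 in mdx. In leg muscle all 3 dko arrays lay above all 3 mdx arrays, as for 5.02% of probe sets, yet the log2 difference of 0.77 did not pass (adjusted p = 0.555 with limma and 0.106 with the replicate block). Extraocular against leg muscle it was at 0.59 in mdx and -0.34 in dko, neither past the threshold.

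**Figure D4:**
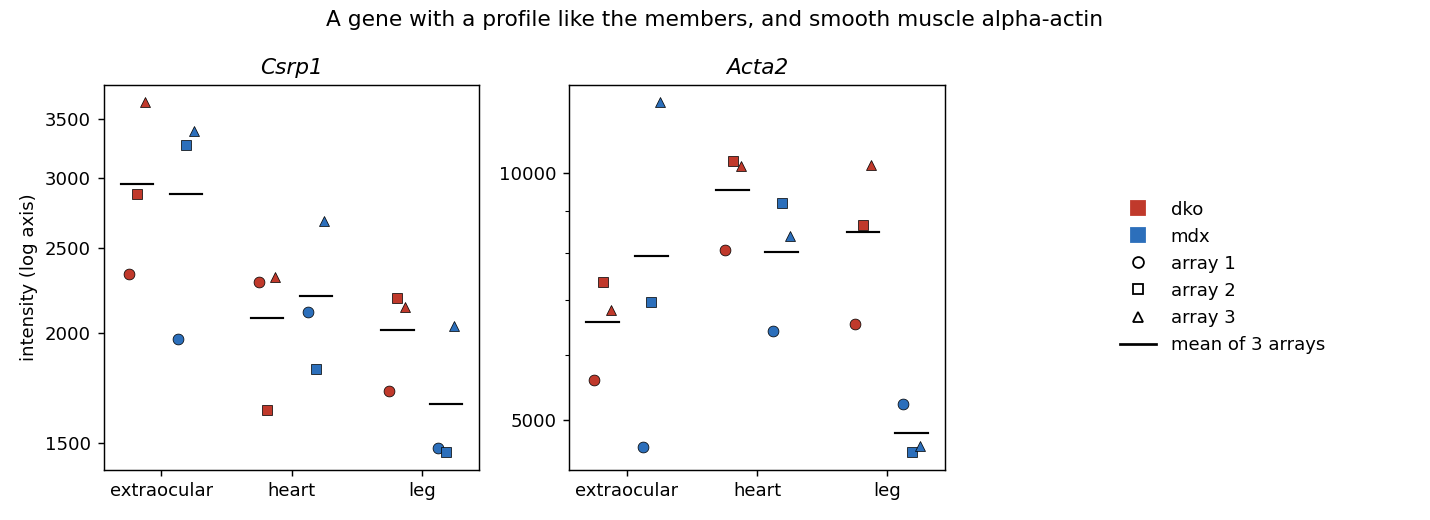
Intensity (log axis) of Csrp1 and Acta2 on each of the 18 arrays, by tissue and genotype, with the array number as shape and the mean of 3 as bar. The mean of Csrp1 is highest in extraocular muscle, as that of Myh11 is, though for both genes mdx heart arrays overlap mdx extraocular ones. Acta2 is at 4566.4 to 5221.5 in mdx leg muscle and 6545.4 to 10232.7 in dko leg muscle.

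Other genes of the contractile apparatus, from a list of actins, light chains, tropomyosins and actin-binding proteins, numbered 14 tested. Between dko and mdx 0 of 14 passed in each tissue in limma. With the replicate block 1 rose in leg muscle, where 1.01% of probe sets did, Cnn3, the acidic calponin also found outside muscle (log2 difference 0.61, adjusted p = 0.0456). The median of the list was 0.24 in leg muscle with 13 of 14 positive, beside -0.04 over all probe sets; in extraocular muscle it was 0.09, and in heart -0.02. Extraocular against leg muscle 0 of 14 passed in either genotype without the block. With it 3 were higher and 1 lower in mdx, beside 6.54% and 5.91% of all probe sets, named here after their values were seen: the regulatory light chain Myl9 (0.80), tropomyosin Tpm1 (0.89) and Csrp1 (0.72) were higher, and vinculin, Vcl (-0.84), was lower. In dko, beside 4.04% and 3.54%, Myl9 (0.85) was higher and Vcl (-0.79) lower. In the same leg samples 26 of 26 fibroblast and matrix genes were above 0 between dko and mdx (1 called without the block and 6 with it), as were 19 of 20 macrophage genes (0 and 4 called) and 15 of 17 skeletal muscle fibre genes (0 and 1 called; median 0.25), against 44.7% of all probe sets. Of all probe sets 0.045% were called higher without the block.

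Of 13 tested genes that control contraction (phosphatase subunits, calmodulins, channels and receptors among them), 0 passed between dko and mdx in any tissue, with or without the block; in the mean of the tissues, among the genes reported here, Gucy1b1, a subunit of the nitric oxide receptor (-0.27), and Ednrb, an endothelin receptor (0.24), were among those farther from 0. Extraocular against leg muscle 1 was higher without the block in each genotype, Kcnma1, the large calcium-activated potassium channel that relaxes vessels, by 2.25 in dko (adjusted p = 0.00101 with limma) and by 2.97 in mdx (adjusted p = 3.87e-05). Of all probe sets 1.43% were higher in dko and 2.57% in mdx. With the block 2 of the 13 were higher and 1 lower in each genotype. The shares of all probe sets were then 4.04% higher and 3.54% lower in dko, and 6.54% and 5.91% in mdx. A list for smooth muscle transcription control held serum response factor partners, Klf and Smad factors, and TGF-beta and Notch ligands and receptors. Of its 16 tested genes again 0 passed between dko and mdx. In the mean of the tissues Mef2c (0.32), Fhl2 (0.28) and Hey1 (-0.24) lay farthest from 0 among them. Extraocular against leg muscle Fhl2, a LIM cofactor of serum response factor, was higher in both genotypes (1.08 in dko and 1.27 in mdx), and Klf4, which represses smooth muscle genes, was higher in mdx (1.27) and in dko with the block only (1.00). With the block 2 of the 16 were higher and 0 lower in dko, and 2 higher and 1 lower in mdx, beside the same shares of all probe sets. Kcnma1 and Klf4 were named after their values were seen.

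Markers of endothelial cells moved in part with the members. Of 17 endothelial genes tested, 18 being on the array, 2 were higher in extraocular than in leg muscle in each genotype: Vwf, von Willebrand factor (0.82 in dko and 1.202 in mdx), and Tek, the angiopoietin receptor (1.16 in dko and 1.17 in mdx), both named after their values were seen. The 3 brightest genes of the list, Eng (0.73 in dko and 0.71 in mdx), Cd34 (0.38 and 0.46) and Cdh5 (-0.005 and -0.29), did not pass without the block. With the block 6 of the 17 were higher in dko and 7 in mdx, beside 4.04% and 6.54% of all probe sets. Without it 1.43% of all probe sets were higher in dko and 2.57% in mdx. The summed endothelial level ran from 27888 to 40058 in dko and from 31340 to 48668 in mdx extraocular muscle, against 23157 to 25996 and 24871 to 32008 in leg muscle. In heart, where the means of Myh11, Tagln, Cnn1 and Mylk were lower than in extraocular muscle and that of Smtn was higher, it was at 43397 to 63220 in dko and 47403 to 69980 in mdx.

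Of 9 pericyte genes 0 were higher in extraocular than in leg muscle in either genotype. In each genotype 6 of the 9 lay above 0, beside 51.2% of all probe sets in dko and 46.7% in mdx. The median of the list was 0.15 in dko and 0.14 in mdx. With the block 2 of the 9 were lower in dko and 3 in mdx, among them Rgs5 (-0.64 in dko and -0.76 in mdx) and Abcc9 (-0.74 and -0.65) in both genotypes. With the block 3.54% of all probe sets were lower in dko and 5.91% in mdx. The sum of the pericyte genes was 10813 to 16286 in dko and 10501 to 17784 in mdx extraocular muscle, against 11733 to 16730 and 13192 to 19261 in leg muscle. Without the block, 1.43% of all probe sets were higher and 0.709% lower in dko, and 2.57% higher and 1.45% lower in mdx. Of 26 fibroblast and matrix genes 0 were higher and 4 lower in dko, and 2 higher and 3 lower in mdx, with sums of 218894 to 309204 and 192457 to 258505 in extraocular muscle, against 264480 to 386409 and 165292 to 326490 in leg muscle. Among 20 macrophage genes 0 were higher and 0 lower in dko, and 0 were higher and 3 lower in mdx, with sums of 62671 to 68135 in dko and 28556 to 35039 in mdx extraocular muscle, against 71682 to 136530 and 38537 to 73514 in leg muscle. Of these 20 genes 0 lay above 0 in dko (median -0.60) and 3 in mdx (median -0.50), beside 51.2% and 46.7% of all probe sets. With the block 3 of them were lower in dko and 6 in mdx, beside 3.54% and 5.91%.

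Nerve markers also differed between these tissues, where 1.43% of all probe sets were higher in extraocular muscle in dko and 2.57% in mdx. Of 7 nerve and Schwann cell genes tested, 4 were higher in extraocular than in leg muscle in dko and 3 in mdx, among them the myelin genes Pmp22 (2.16 in dko and 2.44 in mdx) and Mbp (2.49 in dko and 2.41 in mdx). Their summed level was 19986 to 29409 in dko and 19296 to 25879 in mdx extraocular muscle, with no overlap with leg muscle, at 6063 to 6450 in dko and 5353 to 7027 in mdx. Of 11 gland and epithelium genes 0 were higher in dko and 3 in mdx, beside the same shares of all probe sets. In these 6 lists 0 genes were at 0 on all 3 arrays of any group. The part of these cell types in the members' tissue differences, and in the leg values of Acta2 and Cnn3, was not tested, and in whole tissue more cells of a type and more RNA per cell cannot be told apart.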

How the data were processed

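The deposited values are intensity on a linear scale, scaled by the authors so that, as the values show, the mean of every array without its top and bottom 2% is 1500.69 to 1501.15. The program that made them was not stated in the labels. All 12488 probe sets less 66 controls were considered, and those exceeding the 40th percentile of an array on at least 3 of 18 arrays were tested: 8888, all 5 members among them. Symbols are from the platform annotation.

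To each value 166.7 was added (the 25th percentile of an array, median over arrays) before log2. One limma model (version 3.58.1, R 4.3.3; 12 residual and 3.52 prior degrees of freedom) held the 6 group means. Tests were two-sided, Benjamini-Hochberg adjustment ran over all tested probe sets in a contrast, and adjusted p under 0.05 was called; the code was tested on simulated data. Plots were made with matplotlib 3.10.9. Promoter windows are from RefSeq on GRCm38.p6.

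Replicates carry numbers 1 to 3 in the labels. For 9 of 9 dko and mdx pairs of equal tissue and number, deviations from group means correlated (0.404 to 0.751, across genes). Those of the 36 pairs of equal number from different tissues correlated as well (0.327 to 0.740). The pairing thus comes from the data, and fits were repeated with the number as a block, inside each tissue for genotype and across all arrays for tissue contrasts. The offset, scaling, filter, variance model, arrays in the fit and single arrays left out were also varied. Named genes were the members, Acta2, smooth muscle list genes called between genotypes or else the 3 farthest from 0 in the mean of the tissues, up to 3 of the brightest genes of a cell type list, and the 5 genes most correlated with the members; others are said to be named after their values were seen. Members and lists were chosen with earlier results of these data known. A gene that this rule would name among those that control contraction is not reported here.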

Additional observations from a re-analysis of the deposited data

How the results depend on the processing

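The count of members called between dko and mdx, and for the differences of that contrast between tissues, stayed at 0 under every alternative tried, in extraocular muscle, heart, leg muscle and the mean of the tissues; the lowest adjusted p of any member was 0.31 (Cnn1, leg muscle, replicate block without the arrays numbered 1). For extraocular against leg muscle in mdx the 3 calls fell to 0 with only the contrast's arrays in the fit, and ranged from 0 to 4 with arrays left out. In dko the 0 calls became 3 with the replicate block, and 1 with the offset doubled, with quantile normalization, with the filter at the array median, or with trend and robust variance; with arrays left out it was 0 to 2. For extraocular muscle against heart in mdx it was 2 with the block, 1 with trend and robust variance and 0 to 3 with arrays left out, and in dko 0 to 3 with arrays left out. The settings that left out all arrays numbered 1 or 2, or a number together with the block, were chosen after seeing the data. Of 1645 values of single members under alternatives, 111 reversed in sign, each with arrays left out and 0 of them called. With single arrays left out, dko minus mdx in extraocular muscle ran -0.90 to 0.30 for Myh11, -0.16 to 0.0089 for Mylk, -0.39 to 0.0038 for Tagln and -0.73 to 0.49 for Smtn. The values of dko minus mdx in leg muscle were -0.16 to 0.022 for Myh11, -0.27 to 0.27 for Mylk, -0.16 to 0.32 for Cnn1 and -0.20 to 1.05 for Smtn. The values of dko minus mdx in heart were -0.30 to 0.41 for Myh11, -0.19 to 0.074 for Mylk, -0.012 to 0.26 for Tagln and -0.63 to 0.45 for Smtn. The values of dko minus mdx in the mean of the tissues were -0.32 to 0.084 for Myh11, -0.14 to 0.040 for Mylk, -0.36 to 0.062 for Cnn1, -0.062 to 0.072 for Tagln and -0.16 to 0.30 for Smtn. The values of extraocular against leg in dko were -0.66 to 0.43 for Smtn. The values of extraocular against leg in mdx were -0.27 to 1.04 for Smtn. The values of extraocular against heart in dko were -0.83 to 0.29 for Smtn. The values of extraocular against heart in mdx were -0.83 to 0.39 for Smtn. The values of heart against leg in dko were -0.39 to 0.70 for Smtn. The values of heart against leg in mdx were -0.19 to 0.41 for Cnn1. Without all 6 arrays numbered 1, with or without the block, the reversed values were, for dko minus mdx in leg muscle, Myh11 at 0.0056, for dko minus mdx in heart, Myh11 at -0.089, Tagln at -0.063 and Cnn1 at -0.16, for dko minus mdx in the mean of the tissues, Tagln at -0.052, Mylk at 0.0081 and Smtn at -0.022, for extraocular against heart in dko, Smtn at 0.035, for extraocular against heart in mdx, Smtn at 0.20, for heart against leg in dko, Cnn1 at -0.060 and Smtn at -0.063. Without all 6 arrays numbered 2, with or without the block, the reversed values were, for dko minus mdx in extraocular muscle, Smtn at 0.080, for dko minus mdx in leg muscle, Tagln at -0.018 and Cnn1 at -0.26, for dko minus mdx in heart, Mylk at 0.030 and Smtn at 0.010, for extraocular against leg in mdx, Smtn at -0.079. Without all 6 arrays numbered 3, with or without the block, the reversed values were, for dko minus mdx in extraocular muscle, Mylk at 0.014, for dko minus mdx in leg muscle, Cnn1 at -0.16 and Mylk at -0.14, for heart against leg in mdx, Cnn1 at -0.37. Over all probe sets the calls between dko and mdx went with the block to 14 in extraocular muscle (2 without), 107 in leg muscle (5) and 70 in the mean (8), and with only the contrast's arrays to 0 in extraocular and leg muscle. For leg muscle they were 1 with an offset of 32 and 9 with it doubled, for extraocular muscle 0 with 75th percentile scaling, and for the mean 5 with quantile normalization. Extraocular against leg muscle gave 674 calls with the block and 46 with the contrast's arrays in dko (190 otherwise), and 1106 and 66 in mdx (357). Extraocular muscle against heart gave 1650 and 409 in dko (681), and 1570 and 361 in mdx (627), and heart against leg muscle 2093 and 558 in dko (951), and 2026 and 502 in mdx (886). The difference of the genotype effect called 3 (extraocular minus leg) and 6 (heart minus leg) with the block, 1 of the first kind with the offset doubled, and 0 otherwise in the fits above. The cause of these changes was not tested. Dim signal limits Cnn1, and 3 arrays a group limit all members.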
